A study of Sus scrofa with 6 samples.

Results

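Spliced intergenic lncRNAs are long noncoding transcripts that lie between annotated genes and are joined from more than 1 exon. They were taken from the deposited lncRNA table as the transcripts with class code u (intergenic), at least 2 exons, a chromosome other than X, and a gene ID that occurs on exactly 1 row, so that each stands for 1 locus. This rule gave 190 of the 4046 transcripts (4.70%), and it used no measured level. The table holds 3310 intergenic transcripts, of which 311 were spliced. Of these 311, 113 shared their gene ID with another row and 8 lay on the X chromosome, which leaves the 190. Of the 190, 176 are numbered as the first transcript of their gene ID and 14 as a later one. For the 14, another transcript of the same gene ID had been numbered but is not analysed here, so that their loci are single in the table only.

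RNA was sequenced from longissimus dorsi muscle (LDM), a glycolytic muscle of the back, and from psoas major muscle (PMM), an oxidative muscle of the loin, of female Qingyu pigs, a Chinese native breed, at 178 days of age. Each muscle has 3 libraries, which the study calls biological replicates. No treatment was compared, and all pigs shared breed, age and sex. The study took both muscles from the same set of pigs, kept off feed with free water before slaughter. A random selection of the samples was sequenced. The pig behind each library is not named, so which libraries share a pig is not known. Levels are the FPKM (fragments scaled by transcript length and by the number of mapped fragments) that the authors computed. The table holds no mRNA, so the muscle labels were not checked against marker genes.

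Intergenic lncRNAs are transcribed and often spliced like mRNAs but carry no long open reading frame. Splicing sets them apart from unspliced signal between genes, which can also come from enhancers, from the ends of neighbouring genes or from DNA. Some act in the nucleus on nearby genes, others in the cytoplasm by binding proteins or microRNAs, as linc-MD1 does in muscle cells of mouse and human. Glycolytic and oxidative muscles differ in fibre type, mitochondria and fuel use, and the study asked which lncRNAs differ with them. None of the 190 members has a gene name in the table. Their positions are given as the authors' table has them, and their build is not settled. The labels name Sscrofa11.1, but of 431 rows that carry a gene symbol also found in a gene table of that assembly, 429 were on the chromosome of that gene and only 2 overlapped it.

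Most members were simple models. There were 142 with 2 exons, 34 with 3, 10 with 4, 1 with 5, 2 with 6 and 1 with 7. The genomic span (end minus start) ran from 379 to 48413 bases with a median of 5343, while the spliced length ran from 214 to 17934 bases with a median of 958.5. Introns thus filled most of the typical locus, and exons made up a median of 27.1% of the span. In 130 members the introns were together longer than the exons. In the 142 members with 2 exons the single intron measured 76 to 38610 bases (median 2063.5), with 39 introns under 1 kb and 26 of 10 kb or more.

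Span and exon number went together only loosely, with a Spearman rho of 0.33 over the 190 members, and spliced length was not ordered by exon number (rho 0.01). The median span was 4488.5 bases with 2 exons, 6456 with 3 and 18623 with 4 or more. Of the 14 members with 4 or more exons, only 1 spanned under 5 kb. That member is MSTRG.4066.1 on chromosome 12 from 58148489 to 58151774, with 4 exons and 468 spliced bases. The longest span, 48413 bases, belonged to MSTRG.10660.1 on chromosome 2 from 99110809 to 99159222, with 3 exons and 8604 spliced bases. The shortest, 379 bases, belonged to MSTRG.17933.1 on chromosome 8 from 93410712 to 93411091, with an intron of 88 bases. Members lay on all 18 autosomes, with 27 on chromosome 1, 17 on chromosome 8 and 2 on chromosome 18. On the minus strand were 106 and on the plus strand 84. The median coding potential score was -1.11 by CPC and -0.0424 by CNCI, where lower means less coding potential, against -1.15 and -0.0332 over all transcripts of the table. The study took as lncRNAs only transcripts below a cutoff in both scores, so its filter set low scores for all of them.

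Members were found in nearly every library. The 3 LDM libraries listed 180, 182 and 178 of the 190 above 0 FPKM, which averages 180 ± 2.0 (SD, n = 3). The 3 PMM libraries listed 184, 186 and 181, on average 183.7 ± 2.52 (SD, n = 3). The values of the muscles overlapped. In bulk muscle, fewer cells of a type and less RNA per cell cannot be told apart. All 6 libraries listed 168 members (88.4%), against 90 of 121 (74.4%) of the other spliced intergenic transcripts and 439 of 2999 (14.6%) of the unspliced intergenic transcripts. The median length was 958.5 bases in the members and 1184 in the unspliced transcripts. The median of the mean FPKM was 1.15 in the members and 0.413 in the unspliced. Whether length or level bears on the shares was not tested. In all 3 LDM libraries 170 members were above 0 and in all 3 PMM libraries 179, with 2 in all of LDM but not of PMM and 11 the other way round. Over all 4046 transcripts the order was the other one, with 1393 in all of LDM and 1242 in all of PMM. At a minimum of 1 FPKM as deposited, 50 members were in all of LDM and 71 in all of PMM. No count over all transcripts stands beside these 50 and 71. These shares are descriptions of the table, and no test was made of them.

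**Figure D1:**
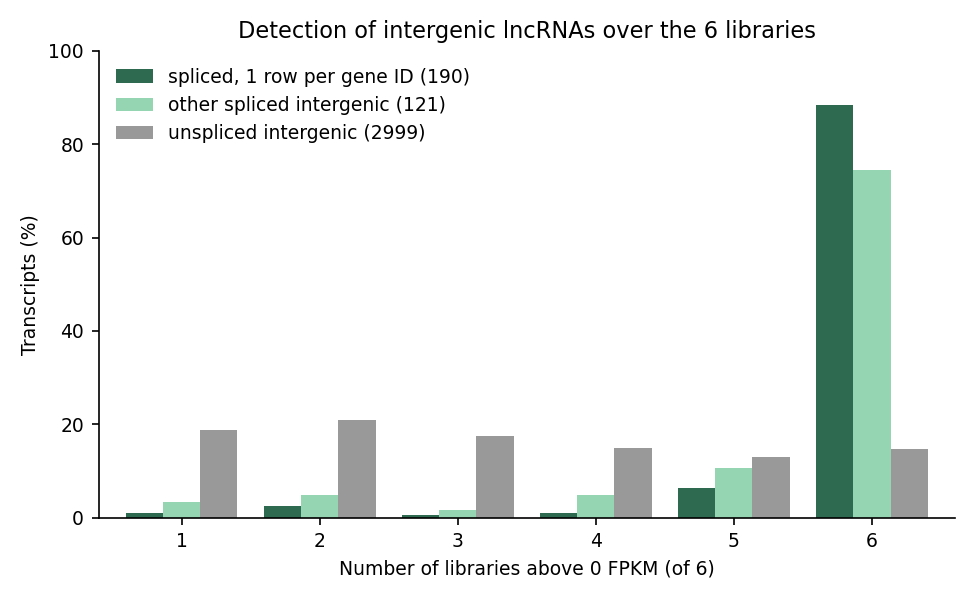
Share of intergenic transcripts (percent, y axis) by the number of the 6 libraries in which they were above 0 FPKM (x axis), for the 190 members, the 121 other spliced and the 2999 unspliced intergenic transcripts. Of the members 88.4% were above 0 in all 6 libraries, of the unspliced transcripts 14.6%.

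Missing values were more frequent at short spans and were not ordered by exon number. Of 1140 values, 49 were listed at 0, and they belonged to 22 members, of which 18 spanned under 5 kb and 19 had 2 exons. By span, 72 of 90 members under 5 kb (80.0%) were above 0 in all 6 libraries, 66 of 69 (95.7%) from 5 to under 20 kb, and 30 of 31 (96.8%) at 20 kb or more. By exons the counts were 123 of 142 (86.6%) with 2, 33 of 34 (97.1%) with 3 and 12 of 14 (85.7%) with 4 or more. For 16 of the 49 zeros, the lower of the other 2 libraries of that muscle predicted 3 or more reads at the depth of the library in question. The other 33 include every zero where a second library of that muscle was also at 0. There the prediction is 0 by construction, so those zeros were not assessed. A median of 50.9 to 73.4 reads stood behind the detected members in each library, estimated from the authors' coverage, the length and the read length.

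Levels were low, and the medians of the 6 libraries were close to each other, though single members varied more. The median FPKM over the 190 members was 0.892, 1.36 and 1.04 in the LDM libraries, on average 1.10 ± 0.242 (SD, n = 3). The PMM libraries had medians of 1.09, 1.44 and 1.40, on average 1.31 ± 0.191 (SD, n = 3). The muscles overlapped, with LDM replicate 1 lowest and PMM replicate 2 highest. A mean of 1 FPKM or more over the 6 libraries was reached by 113 members (59.5%), against 69 of the 121 other spliced (57.0%) and 456 of the 2999 unspliced intergenic transcripts (15.2%). Only 9 members reached 10 FPKM, 8 of them with 2 exons, and 2 stayed under 0.1. LDM replicate 2 stands apart in the table, and less so here. Among the unspliced intergenic transcripts its median of 1.29 FPKM was 6.11 times that of the next library. Among the members its median was 0.948 times the highest other median, that of PMM replicate 2. It was 1.31 and 1.53 times the member medians of LDM replicates 3 and 1. LDM replicate 2 also had the fewest gigabases behind its FPKM of the 6 libraries, 7.24, the others having 7.52 to 8.78. By the valid reads that the study lists, it was not the smallest library.

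**Figure D2:**
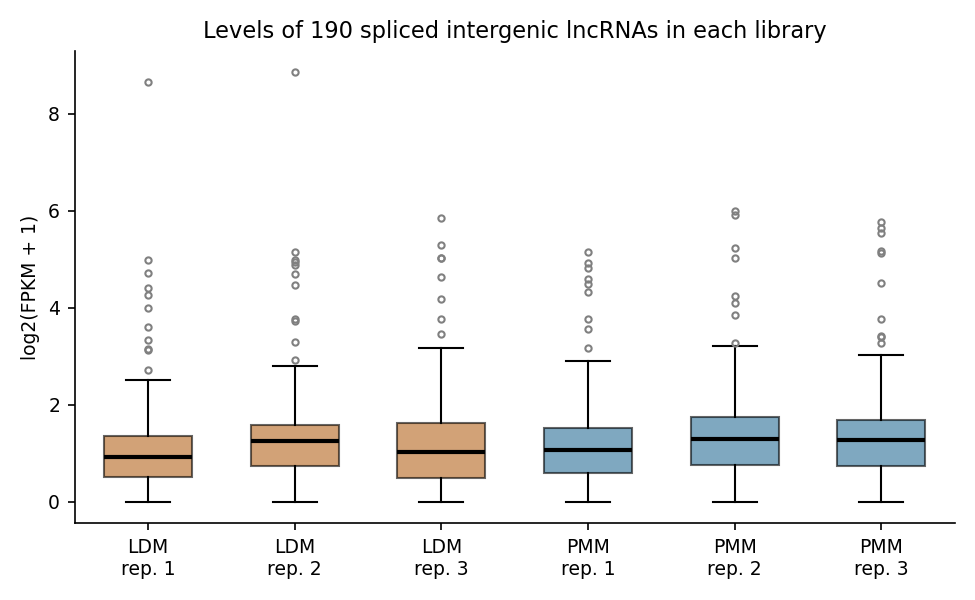
Box plots of log2(FPKM + 1) of the 190 members in each of the 3 LDM and 3 PMM libraries. The line is the median, the box spans the quartiles, whiskers reach 1.5 times the box height at most and circles are members beyond them. The medians lie close together, and a single member stands far above the rest in LDM replicates 1 and 2 only.

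Neither exon number nor span ordered the levels strongly. Over the 190 members the Spearman rho with mean FPKM was 0.09 for exon number, 0.17 for span and 0.12 for spliced length, as a description in which all points share the same libraries. The median of the mean FPKM was 1.10 with 2 exons, 1.48 with 3 and 1.15 with 4 or more. It was 1.06 under 5 kb, 1.23 from 5 to under 20 kb and 1.32 at 20 kb or more. The high levels were not where the exons were many. All 14 members with 4 or more exons stayed under 10 FPKM, and 6 of the 9 members of 10 FPKM or more spanned under 5 kb.

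**Figure D3:**
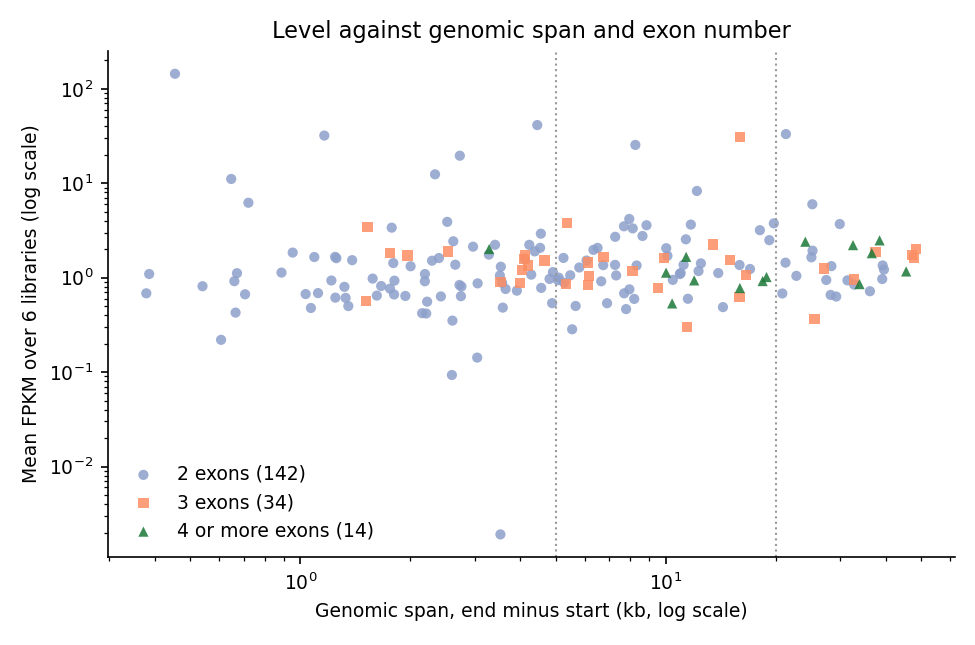
Mean FPKM over the 6 libraries (log axis) against the genomic span in kb (log axis) for the 190 members, with 2, 3 and 4 or more exons as circles, squares and triangles. Dotted lines mark spans of 5 and 20 kb. Levels scatter around 1 FPKM at every span, and the members above 10 FPKM include spans under 5 kb and 1 above 20 kb.

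The most abundant member by mean was a transcript of 2 libraries. MSTRG.7363.1, with 2 exons, 297 spliced bases and an intron of 158 bases on chromosome 15 from 93896032 to 93896486, had 403 and 461 FPKM in LDM replicates 1 and 2 and was listed at 0 in LDM replicate 3 and in all 3 PMM libraries. About 6340 and 6611 reads stood behind the 2 values, and 7010 reads would be expected in LDM replicate 3 at the lower of them. It made up 54.3% and 49.6% of the summed FPKM of all members in LDM replicates 1 and 2. With it, the summed FPKM was 743, 930 and 464 in LDM against 422, 551 and 539 in PMM, a mean of 712 ± 234 against 504 ± 71.4 (SD, n = 3 each). Without it the sums were 340, 469 and 464 in LDM, so that the mean of LDM fell below that of PMM by 79.9 FPKM. It was not above 0 in all 3 libraries of a muscle, so it was not tested.

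The other abundant members were present in all 6 libraries. MSTRG.16406.1, with 2 short exons of together 264 bases spread over 21302 bases of chromosome 7 from 13826359 to 13847661, had 30.6, 30.8 and 31.5 FPKM in LDM against 34.7, 36.5 and 34.8 in PMM. Its highest value was 1.19 times its lowest, the smallest such ratio of any member above 0 in all libraries. Every PMM library lay above every LDM library, by little, and the log2 difference was -0.18 (SE 0.31, limma adjusted p = 0.875). MSTRG.984.1 on chromosome 1 from 145070396 to 145086344, with 3 exons and 5483 spliced bases, had 25.4, 34.2 and 31.6 FPKM in LDM against 27.0, 31.4 and 34.0 in PMM, and the muscles overlapped. On the same strand and 251 bases away lies MSTRG.981.1, a transcript opposite an exon of ENSSSCG00000004750, whose symbol is OIP5, a gene of kinetochore assembly. In human the strand opposite OIP5 encodes the abundant lncRNA OIP5-AS1. MSTRG.17651.1 on chromosome 8 from 41302903 to 41305634, with 2 exons, had 18.1, 21.1 and 17.1 FPKM in LDM against 23.3, 16.1 and 21.6 in PMM. It lies 987 bases from a transcript inside an intron of LRRC66, on the same strand, which had at most 1.30 FPKM in any library. MSTRG.15359.1 on chromosome 6 from 58332926 to 58335262 had 9.08, 12.2 and 9.99 FPKM in LDM against 12.6, 18.0 and 12.6 in PMM, again with every PMM value above the LDM values (limma adjusted p = 0.728).

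Other abundant members varied widely between libraries of the same muscle. MSTRG.12846.1 on chromosome 4 from 43627517 to 43631965 had 20.3, 28.3 and 56.4 FPKM in LDM against 29.5, 59.4 and 53.7 in PMM. MSTRG.10783.1 on chromosome 2 from 135876345 to 135884596 had 14.9, 24.8 and 37.9 FPKM in LDM against 21.4, 7.66 and 45.8 in PMM. In both, the spread within a muscle was larger than the difference between the muscle means. Over the 168 members above 0 in every library, the highest value was a median of 5.11 times the lowest, under 2 times in 20 members and 10 times or more in 40. By the SD of log2(FPKM + 1) over the 6 libraries, the steadiest members of at least 1 FPKM after MSTRG.16406.1 were MSTRG.18212.1 on chromosome 8 (2.93 to 3.97 FPKM), MSTRG.5597.1 on chromosome 13 (1.32 to 1.96 FPKM), MSTRG.6916.1 on chromosome 14 with 4 exons (1.54 to 2.23 FPKM) and MSTRG.9339.1 on chromosome 18 (1.61 to 2.60 FPKM).

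The members with the most exons were of moderate level. MSTRG.13517.1, with 7 exons over 38427 bases of chromosome 4, had 1.40, 4.95 and 3.53 FPKM in LDM against 0.992, 2.14 and 1.89 in PMM. MSTRG.5251.1, with 6 exons on chromosome 13, had 1.36, 1.60 and 2.51 FPKM in LDM against 3.04, 3.15 and 2.77 in PMM, without overlap (limma adjusted p = 0.695). MSTRG.18705.1, the member with 5 exons, on chromosome 9, had 0.286, 0.991 and 0.715 FPKM in LDM against 0.646, 2.43 and 1.02 in PMM. The exons of these 3 members together measured 1467, 694 and 611 bases, so each had many short exons rather than a long transcript. The other member with 6 exons, MSTRG.5527.1, is described with the differences between the muscles.

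The members of the longest spans were likewise near 1 to 2 FPKM in most libraries. MSTRG.10660.1, the longest, had 1.06, 3.66 and 1.79 FPKM in LDM against 1.499, 2.29 and 1.70 in PMM. MSTRG.14042.1, with 3 exons over 47683 bases of chromosome 5, had 0.761, 1.97 and 0.803 FPKM in LDM against 2.15, 2.42 and 1.49 in PMM. MSTRG.17877.1, with 3 exons over 47224 bases of chromosome 8, had 1.12, 3.51 and 0.638 FPKM in LDM against 1.84, 1.995 and 1.38 in PMM. In each of these, LDM replicate 2 was the highest LDM library, and the muscles overlapped. MSTRG.7231.1, with 4 exons over 45433 bases of chromosome 15, had 0.737, 0.570 and 1.28 FPKM in LDM against 0.693, 1.78 and 1.91 in PMM. Its muscles overlapped too, and the limma adjusted p of all 4 lay between 0.728 and 0.939.

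The comparison of LDM with PMM called no member at an adjusted p under 0.05. It was made with limma on log2(FPKM + 1) over the 1721 transcripts of the table above 0 in all 3 libraries of a muscle, of which 181 were members. On this scale the differences of transcripts near 0 FPKM come out too small. No member was higher in LDM and none in PMM, where 0.0581% and 0.116% of all tested transcripts were, and the smallest adjusted p of a member was 0.373. At an unadjusted p under 0.05 were 11 members (6.08%), against 7.84% of all tested transcripts. The 9 members that were not tested all had 2 exons and spanned at most 3527 bases.

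With the replicate number as a block, 4 members passed (2.21%), against 2.79% of all tested transcripts. MSTRG.1588.1 was higher in LDM, where 1.10% of all tested transcripts were called, and MSTRG.12670.1, MSTRG.6782.1 and MSTRG.17989.1 were higher in PMM, where 1.69% were called. The shares of the 181 members, 0.552% and 1.66%, were at or below these. The block assumes that equal numbers mark a pair, which the sources do not state. In that fit limma replaced each transcript's own spread by the one predicted from its mean level. Without the block, libraries that may share a pig were treated as independent.

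As a wider count, 2 members were higher in LDM (1.10% of members, 1.34% of all tested) and 6 in PMM (3.31% of members, 2.44% of all tested) at an unadjusted p under 0.05 and a log2 difference of at least 1. Under median-of-ratios scaling the 6 became 2. The count of 6 became 10 without LDM replicate 2 and 3 without LDM replicate 3 or PMM replicate 2, and the count of 2 became 1 without PMM replicate 1. Values of the muscles did not overlap in 8 members higher in LDM (4.42% of members, 5.87% of all tested) and 23 higher in PMM (12.7% of members, 9.01% of all tested). With the scaling these were 10 and 13 (5.52% and 7.18% of members, 8.66% and 7.61% of all tested). The filter bears on the counts without overlap, since 11 members passed it through PMM alone and 2 through LDM alone.

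**Figure D4:**
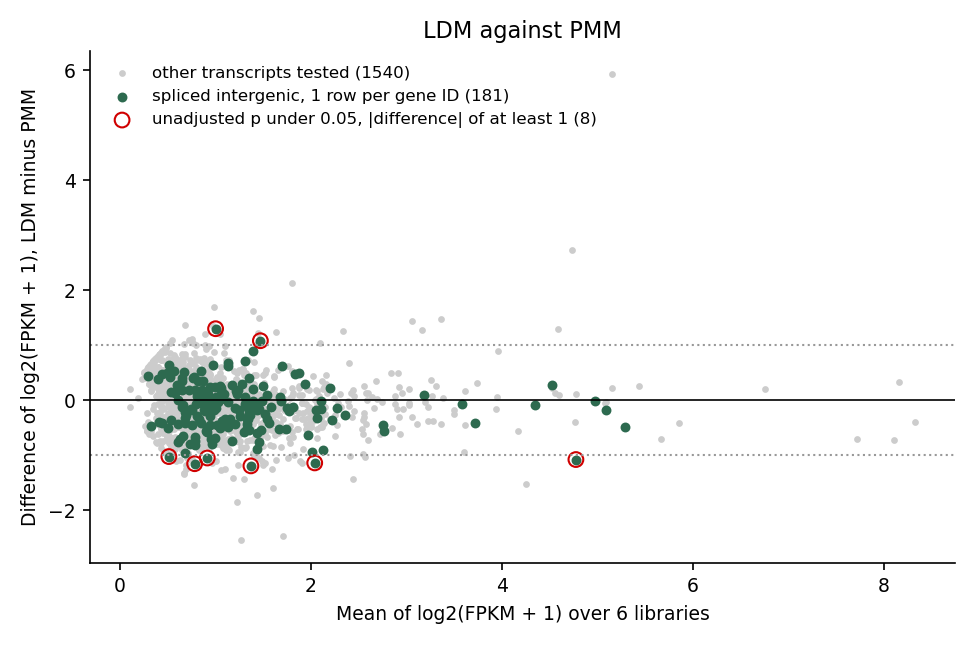
Difference of log2(FPKM + 1), LDM minus PMM (y axis), against the mean of log2(FPKM + 1) over the 6 libraries (x axis), for the 181 members tested and the other transcripts tested. Red circles mark the 8 members at an unadjusted p under 0.05 and a difference of at least 1, and dotted lines mark a difference of 1 in each direction. Members lie within the cloud of the other transcripts.

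Both members higher in LDM at these thresholds had 3 or more exons and long spans. MSTRG.1588.1, with 3 exons and 357 spliced bases over 27082 bases of chromosome 1 from 256641710 to 256668792, had 2.42, 1.34 and 2.87 FPKM in LDM against 0.0675, 0.368 and 0.428 in PMM. The lowest LDM value was thus above the highest PMM value. Its log2 difference (LDM minus PMM) was 1.30 (SE 0.38, limma adjusted p = 0.373, 0.0232 with the block). MSTRG.5527.1, with 6 exons and 3663 spliced bases over 32507 bases of chromosome 13 from 190446908 to 190479415, had 1.22, 5.52 and 3.53 FPKM in LDM against 0.261, 1.67 and 1.06 in PMM. Its muscles overlapped, because LDM replicate 1 lay below PMM replicate 2. Its log2 difference was 1.08 (SE 0.43, limma adjusted p = 0.568, 0.0568 with the block).

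The 6 members higher in PMM at these thresholds covered levels from under 1 to over 40 FPKM. MSTRG.12670.1, with 3 exons over 2532 bases of chromosome 4 from 16100624 to 16103156, had 0.642, 0.664 and 0.831 FPKM in LDM against 1.70, 4.46 and 3.08 in PMM. All PMM values lay above all LDM values, and the log2 difference was -1.20 (SE 0.38, limma adjusted p = 0.420, 0.0286 with the block). MSTRG.17989.1, with 2 exons on chromosome 8 from 112308173 to 112309336, was the most abundant of the 6, with 7.74, 29.9 and 23.7 FPKM in LDM against 18.9, 62.5 and 48.9 in PMM. Within each replicate number PMM was higher, but the muscles overlapped, and replicate 1 was lowest in both. Its log2 difference was -1.08 (SE 0.46, limma adjusted p = 0.596, 0.00987 with the block).

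MSTRG.7244.1, with 4 exons over 10402 bases of chromosome 15 from 79510001 to 79520403, was the one tested member confined to a single muscle. It was listed at 0 in all 3 LDM libraries and at 0.598, 1.20 and 1.40 FPKM in PMM. It passed the filter through PMM alone, where the muscles cannot overlap (limma adjusted p = 0.462, 0.188 with the block). MSTRG.3143.2, with 2 exons on chromosome 12 from 1426934 to 1429126, had 0.661, 0.352 and 0 FPKM in LDM against 0.971, 1.49 and 3.07 in PMM, without overlap (limma adjusted p = 0.538). MSTRG.2565.1 on chromosome 10 from 62383013 to 62383684 had 0.216, 0.259 and 0 FPKM in LDM against 0.0410, 3.73 and 2.44 in PMM, where PMM replicate 1 lay among the LDM values (limma adjusted p = 0.596). MSTRG.3143.2 and MSTRG.2565.1 also passed the filter through PMM alone, the muscle of their higher mean, so 3 of the 6 members higher in PMM did. MSTRG.2565.1 lies within MSTRG.2564.1, another member on the same strand. MSTRG.2565.1 lies outside the naming rule and was chosen after its values were seen, to complete the count of 6.

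**Figure D5:**
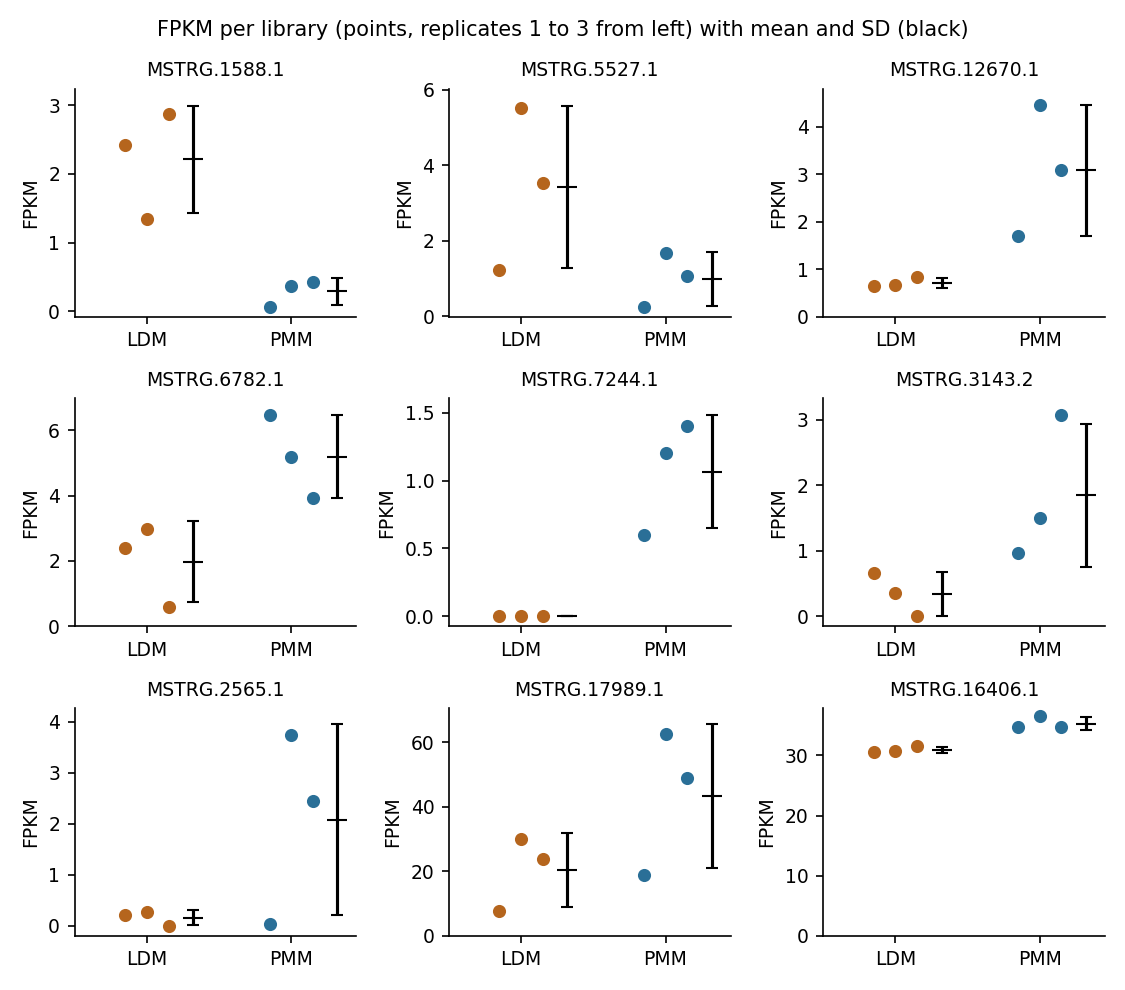
FPKM (y axes, differing scales) of 9 members in the 3 LDM libraries and the 3 PMM libraries, with replicates 1 to 3 from left to right and the mean and SD in black. The first 8 panels are the members at an unadjusted p under 0.05 and a log2 difference of at least 1, and the last, MSTRG.16406.1, is the steadiest member of at least 1 FPKM. Points of the muscles overlap in MSTRG.5527.1, MSTRG.2565.1 and MSTRG.17989.1.

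Next to MSTRG.6782.1, higher in PMM, lay transcripts of the same pattern. MSTRG.6782.1, with 2 exons and 8493 spliced bases on the plus strand of chromosome 14 from 131965294 to 131974146, had 2.40, 2.97 and 0.573 FPKM in LDM against 6.48, 5.19 and 3.92 in PMM. The muscles did not overlap, and the log2 difference was -1.14 (SE 0.39, limma adjusted p = 0.462, 0.0259 with the block). MSTRG.6783.1, also a member, starts 27240 bases further on the same strand and spans 25190 bases, with 1.47, 1.72 and 0.398 FPKM in LDM against 3.58, 2.63 and 1.79 in PMM (limma adjusted p = 0.622). MSTRG.6779.1, an unspliced intergenic transcript and no member, lies 17703 bases before the first on that strand, with 2.10, 3.54 and 1.54 FPKM in LDM against 8.54, 7.73 and 7.57 in PMM (limma adjusted p = 0.108, 5.5e-04 with the block). In all 3 transcripts every PMM library lay above every LDM library and LDM replicate 3 was lowest. Both neighbours were chosen after their values were seen, and whether the 3 are parts of a longer transcript was not tested. Only 3 pairs of neighbouring members lay within 50 kb of each other on the same strand.

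The remaining members that the naming rule took for no overlap had smaller differences. In LDM the next was MSTRG.18012.1 on chromosome 8, at 1.56, 1.85 and 3.42 FPKM in LDM against 0.682, 0.835 and 1.36 in PMM (limma adjusted p = 0.622). By p, MSTRG.10707.1 on chromosome 2 followed, at 0.643, 1.54 and 0.372 FPKM in LDM against 0.341, 0.0321 and 0.0811 in PMM (limma adjusted p = 0.647). MSTRG.248.1 on chromosome 1 had 3.30, 2.81 and 4.10 FPKM in LDM against 1.49, 2.43 and 2.44 in PMM (limma adjusted p = 0.704). MSTRG.12474.1 on chromosome 3 and MSTRG.144.1 on chromosome 1 came last, with log2 differences of 0.50 and 0.42 and with LDM replicate 2 highest in both. In PMM they were MSTRG.2439.1 on chromosome 10, with 2.52, 3.43 and 1.07 FPKM in LDM against 5.28, 5.89 and 3.99 in PMM (limma adjusted p = 0.574), and MSTRG.667.1 on chromosome 1, with 0.514, 0.410 and 0.526 FPKM in LDM against 0.980, 2.52 and 1.41 in PMM (limma adjusted p = 0.622). Exact permutation tests gave p = 0.1 for each member without overlap, the smallest p that 3 against 3 allow, and the choice by no overlap fixes this value.

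Most member differences pointed to PMM on the scale as deposited, and this depended on the scaling. Of 181 members tested, 117 had a log2 difference below 0 (higher in PMM) and 64 above, with a median of -0.14, while over all 1721 tested transcripts 881 were below 0 with a median of -0.01. The filter bears on these counts, since it let in 11 members through PMM alone and 2 through LDM alone. With no filter, 120 of the 190 members were below 0, with a median of -0.13. Over all 4046 transcripts 1818 then were, with a median of 0.09. With median-of-ratios scaling, which moved the median of all tested transcripts up by 0.10, 88 members were below 0 and 93 above, with a median of 0.04 against 0.09 over all. Relative to all tested transcripts the member median was thus -0.13 as deposited and -0.05 with the scaling. The lean was not particular to the members. As deposited, 65 of the 107 other spliced intergenic transcripts tested were below 0, with a median of -0.12. Of the 1066 unspliced intergenic transcripts tested, 507 were below 0, with a median of 0.03. Above 0 in all of LDM and in all of PMM were 96 and 101 of the other spliced transcripts, and 829 and 676 of the unspliced. The filter thus let in more of the unspliced through LDM, which bears on this contrast. By exon number, 82 of 133 members with 2 exons, 27 of 34 with 3 and 8 of 14 with 4 or more lay below 0 as deposited, and 62, 19 and 7 with the scaling. By span, 54 of 81 under 5 kb, 41 of 69 from 5 to under 20 kb and 22 of 31 at 20 kb or more lay below 0 as deposited, and 39, 33 and 16 with the scaling. The difference was not ordered by exon number (rho -0.07), span (rho 0.02) or spliced length (rho 0.05) over the 181 members.

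Across members the PMM libraries were on average more alike than the LDM libraries. The mean Pearson correlation of log2(FPKM + 1) over the 190 members was 0.842 between PMM libraries, 0.671 between LDM libraries and 0.650 across muscles. Leaving out MSTRG.7363.1 gave 0.840, 0.751 and 0.756, so that the mean within LDM was then no higher than the mean across muscles. The LDM pairs differed. Without that member, LDM replicates 1 and 3 correlated at 0.810, and LDM replicate 2 at 0.735 and 0.708 with them. The PMM pairs had 0.804 to 0.859. Members are the points here, and they share libraries, so no p is given. The highest value of a member was in PMM replicate 2 for 51 members and in LDM replicate 2 for 47, and in LDM replicate 1 for 13.

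Above 0 in 1 to 3 libraries were 8 members, of which MSTRG.7244.1 was tested and the other 7 did not pass the filter. MSTRG.17430.1 on chromosome 7, with 2 exons and an intron of 163 bases, had 6.56 FPKM in LDM replicate 2 and 0 in all others. MSTRG.17933.1 had 0.169 and 3.93 FPKM in PMM replicates 1 and 2 only, and MSTRG.17177.1 on chromosome 7 had 1.25 and 0.0673 FPKM in the same libraries only. MSTRG.17928.2 on chromosome 8 had 2.38 and 1.30 FPKM in LDM replicates 1 and 3 only. With MSTRG.7363.1, 3 of the 4 shortest spans of all members were in this group. The fourth, MSTRG.2727.1 on chromosome 11 with an intron of 143 bases, was at 0 in LDM replicate 1 only.

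The members lay mostly far from the lncRNAs of the table that overlap a named gene. The nearest other transcript of the table was a median of 60.6 kb away, within 5 kb for 42 members and overlapping for 8. The nearest lncRNA of the table that overlaps a named gene was a median of 1722 kb away, and it lay within 30 kb for 9 members. Most genes have no such lncRNA in the table, and the distance to the genes themselves was not measured. Those described here were picked from these 9, outside the naming rule, and distance alone did not decide which. MSTRG.984.1 and MSTRG.17651.1 are described above. Not described are MSTRG.12714.1, 7263 bases from a transcript opposite 5S_rRNA, and MSTRG.1872.1, 11067 bases from a transcript inside an intron of RABGAP1. MSTRG.10997.1 on chromosome 2 from 157634784 to 157639875, on the minus strand, lies 69 bases from MSTRG.10998.1 on the plus strand, which overlaps ssc-mir-378-1. In mouse, miR-378 is encoded within Ppargc1b, a coactivator gene of mitochondrial metabolism. MSTRG.10997.1 had 1.48, 1.05 and 0.506 FPKM in LDM against 0, 1.61 and 1.35 in PMM, with overlap of the muscles. MSTRG.18836.1 on chromosome 9 from 82591512 to 82607418, with 2 exons and 14407 spliced bases, lies 21472 bases from a transcript opposite PDK4, the kinase that inhibits pyruvate dehydrogenase and so spares glucose. It had 3.57, 1.64 and 0.640 FPKM in LDM against 0.731, 0.938 and 0.644 in PMM, so that 2 LDM libraries were high and the third was the lowest of the 6 (limma adjusted p = 0.686). MSTRG.18951.2 on chromosome 9 lies 79 bases from a transcript on the other strand that overlaps an exon of KMT2E, a chromatin regulator, and had 0.18, 0 and 0.31 FPKM in LDM against 0.94, 0.17 and 0.59 in PMM. MSTRG.17316.1 on chromosome 7 overlaps a transcript opposite STON2, an endocytosis gene, on the same strand, with 0.51 to 2.81 FPKM against 0.85 to 2.42 FPKM for that transcript. MSTRG.13944.1 on chromosome 5 lies 20276 bases from a transcript inside an intron of ERBB3, a neuregulin receptor gene, with 3.03, 3.89 and 7.93 FPKM in LDM against 5.15, 8.68 and 8.59 in PMM. None of these members near such an lncRNA had an unadjusted p under 0.05 in limma.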

How the data were processed

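RNA of LDM and PMM was sequenced in 3 libraries each. The methods name Tophat and Cufflinks, and the submitters' processing notes TopHat and Sscrofa11.1, while the transcript IDs begin with MSTRG. The methods exclude transcripts with fewer than 2 exons, yet most deposited transcripts have 1. The authors deposited an FPKM for each transcript and library, a coverage per base that is a signal with no scaling between libraries, and the CPC and CNCI scores of coding potential, used as given. In each library coverage divided by FPKM was constant, which gave the gigabases behind the FPKM. Reads were not used.

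FPKM were compared as log2(FPKM + 1), LDM minus PMM, with limma (version 3.58.1, R 4.3.3), as a two-sided test whose spread was moderated along the mean level, and p-values were adjusted by Benjamini-Hochberg over the 1721 transcripts that all 3 libraries of LDM or of PMM list above 0. Single members were also compared by exact permutation tests. The fit was tested on simulated data. Tables and plots were made in Python 3.11.15 with matplotlib 3.10.9, scipy 1.17.1, numpy 2.4.6 and pandas 2.3.3. As a check of pairing, each library's deviation from its muscle mean was correlated across muscles, giving 0.239, 0.123 and 0.168 where replicate numbers matched and -0.179 to 0.0423 elsewhere, and since no source ties a replicate number to a pig, the main fit has no block and the fit with the number as a block is an alternative. Alternatives were pseudocount 0.1, no filter, at least 0.1 FPKM in 3 libraries, median-of-ratios scaling, the block, no trend, and each library left out.

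Members were named by a rule that took, per muscle, up to 6 of the smallest p without overlap and with at least 0.5 FPKM in the higher muscle, the 8 most abundant, the 5 with most exons, the 4 longest and 4 shortest spans, those at 0 in 1 muscle only, the 5 steadiest of at least 1 FPKM, the 5 highest among those in few libraries, and any numbered like a lncRNA that the study names, of which there were 0. The members and rules were chosen with earlier results of these data known. Gene symbols of Ensembl IDs came from a table of names.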

Additional observations from a re-analysis of the deposited data

How the results depend on the processing

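No fit called more than 1 member higher in LDM or more than 3 in PMM at an adjusted p under 0.05. The member higher in LDM was MSTRG.7363.1 with no filter (1 member) and without LDM replicate 3, and leaving out a library otherwise gave 0, a range of 0 to 1 in LDM and 0 to 0 in PMM. With the replicate block 1 was higher in LDM and 3 in PMM, and the block changed no other call. At the unadjusted threshold, leaving out a library gave 1 to 3 members higher in LDM and 3 to 10 in PMM, and median-of-ratios scaling gave 2 in PMM. That scaling turned the median log2 difference of the members from -0.14 to 0.036, while leaving out a library gave -0.20 to -0.07. At a minimum of 1 FPKM as deposited, 50 members were present in all 3 LDM libraries and 71 in all 3 PMM libraries. The difference in summed FPKM, 208 higher in LDM, became -79.9 without MSTRG.7363.1 and was 99.4 to 332 with a library left out. Of 180 fits of 15 single members under 12 alternatives, 4 passed the adjusted p, all with the block. Their direction is no sign of stability, since 12 of the 15 were chosen for muscles that do not overlap. Except for the alternatives' own construction, the cause of these changes was not tested.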
